A study of Mus musculus with 4 samples.

Results

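The cells described here carried transcripts of Cpa3 and Fcer1a without the wider set of basophil transcripts. They were chosen by measured values. A cell was taken when it had at least 5 Cpa3 UMIs (unique molecular identifiers, each standing for 1 captured transcript) and at least 2 Fcer1a UMIs. It also had to show fewer than 3 of the 5 basophil and mast cell genes Prss34, Mcpt8, Ms4a2, Cd200r3 and Cyp11a1. The last condition was fewer than 4 of the 6 erythroid genes Klf1, Car1, Ermap, Rhd, Epor and Gata1. The rule selected 568 of the 34122 cells that passed filtering. Of these, 24 came from the control library, 18 from Mll3SI, 77 from Mll4SI and 449 from Mll3/4SI, so that 79.05% lay in Mll3/4SI. The remaining 3 libraries held small numbers of cells that met the rule. Meeting it does not make them the same cells, and their other genes are compared with those of Mll3/4SI at the end. Because the rule set the levels of its own 13 genes, those levels are given as a description and nothing is supported with them.

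The series counted RNA and surface antibodies in the same single cells (CITE-seq) of CD45.2+Kit+ mouse bone marrow, 10 weeks after transplantation. CD45.2 is an allele of CD45 by which grafted blood cells are recognised, and Kit, the receptor for stem cell factor, is carried by blood stem cells, progenitors and mast cells. There was 1 library for each of 4 groups: control (library name wt), Mll3SI (mll3KI), Mll4SI (mll4KI) and Mll3/4SI (dKI). Kmt2c encodes MLL3 and Kmt2d encodes MLL4, both histone methyltransferases. The labels do not spell out SI or KI, name no allele or driver beyond these names, and do not state how many animals were used or what the 2 hashtag antibodies marked. No difference between libraries has a replicate check, no p-value was computed, and every interval in brackets covers counting error only, at 95%. Differences between animals and between groups cannot be told apart.

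Basophils and mast cells arise from progenitors that also give other myeloid cells. Both carry the high-affinity receptor for IgE, whose alpha chain (Fcer1a) binds the antibody while a beta chain (Ms4a2) and a gamma chain (Fcer1g) pass on the signal, and both store histamine and proteases in granules. Cpa3, carboxypeptidase A3, is a granule protease of mast cells that is already transcribed in early blood progenitors, whereas Mcpt8 and Prss34 are granule proteases of basophils. MLL3 and MLL4 place activating methyl marks on histone H3 at enhancers.

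The libraries held 7887, 9370, 11678 and 7524 cell barcodes (control, Mll3SI, Mll4SI, Mll3/4SI, the order used throughout), of which 7152, 8617, 11187 and 7166 were kept. Kept cells had a median of 17284.5, 14120, 13516 and 19644 gene UMIs. Control and Mll3SI cells carried Y-linked transcripts, and Mll4SI and Mll3/4SI cells carried Xist instead, so sex and group cannot be told apart across those libraries. Between 13 and 25 kept barcodes were shared by each pair of libraries, and 0 of them joined 2 of the selected cells. In Mll3/4SI the doublet caller Scrublet placed 41 of the 449 selected cells (9.13%) among its top scores, against 5.51% of the other kept cells. The share carrying both hashtags was 4.68% against 4.96%.

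Cpa3, Fcer1a, Ms4a2 and Prss34, from the rule, and Il1rl1 are shown by the 250 bases before their transcription start (RefSeq, GRCm38.p6). They are shown because they were held or missing in the same cells and Gata2, which encodes a GATA-binding factor, was among the genes that stood out. The GATA motif AGATAA, its variant AGATAG with a last G, the variant TGATAA with a first T, and TGATAG, which has both, were searched on both strands. Matches are printed in capitals, in the reverse complement where they lie on the other strand. Cpa3 and Fcer1a were required for selection, Ms4a2 was held by most of the selected cells and Prss34 by almost none, and Il1rl1, the receptor for interleukin 33, stood out among genes outside the rule.
Cpa3 (chr3:20242182-20242431, minus strand): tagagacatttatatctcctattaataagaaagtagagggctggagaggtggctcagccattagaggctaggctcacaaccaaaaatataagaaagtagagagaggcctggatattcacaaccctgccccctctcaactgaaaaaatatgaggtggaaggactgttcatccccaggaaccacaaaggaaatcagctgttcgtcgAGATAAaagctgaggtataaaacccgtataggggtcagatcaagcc
Fcer1a (chr1:173227230-173227479, minus strand): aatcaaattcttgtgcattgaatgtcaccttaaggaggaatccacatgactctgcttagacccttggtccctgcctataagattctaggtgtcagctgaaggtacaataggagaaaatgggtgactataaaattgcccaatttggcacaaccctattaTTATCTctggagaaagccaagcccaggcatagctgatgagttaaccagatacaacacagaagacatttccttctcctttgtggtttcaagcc
Ms4a2 (chr19:11623720-11623969, minus strand): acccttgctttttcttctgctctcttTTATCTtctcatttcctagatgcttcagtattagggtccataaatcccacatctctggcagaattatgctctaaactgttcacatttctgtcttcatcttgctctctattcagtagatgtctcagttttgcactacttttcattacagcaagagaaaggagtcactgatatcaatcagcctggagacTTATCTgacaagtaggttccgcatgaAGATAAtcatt
Prss34 (chr17:25298144-25298393, plus strand): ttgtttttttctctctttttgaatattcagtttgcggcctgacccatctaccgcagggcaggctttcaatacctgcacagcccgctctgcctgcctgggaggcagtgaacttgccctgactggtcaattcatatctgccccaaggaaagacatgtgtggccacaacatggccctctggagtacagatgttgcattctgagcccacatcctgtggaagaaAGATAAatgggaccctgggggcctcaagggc
Il1rl1 (chr1:40429320-40429569, plus strand): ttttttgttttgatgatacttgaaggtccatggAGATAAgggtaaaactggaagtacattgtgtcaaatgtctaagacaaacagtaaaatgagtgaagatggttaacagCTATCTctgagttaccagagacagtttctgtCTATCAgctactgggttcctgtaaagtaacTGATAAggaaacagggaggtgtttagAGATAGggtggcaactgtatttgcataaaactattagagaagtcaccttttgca

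Cpa3 and Fcer1a each held 1 match, starting 46 and 92 bases before the start. Ms4a2 held 3, and the 2 Il1rl1 entries held 5 (printed) and 1. Every printed promoter held a match, and genes without a match were not printed. Among genes counted in few of the cells, Prss34 held 1, Cd200r3 held 3 and Mcpt8 held 0. Gata2 itself, well counted, held 0 in both of its entries. Hdc held 1, Pf4 held 0, and the 2 Cyp11a1 entries held 0 and 1. Cpa3, Fcer1a, Ms4a2, Prss34, Cd200r3, Mcpt8 and Cyp11a1 belong to the rule, so the selection partly set whether they were found. No reading is drawn from the numbers of matches. Of 32851 promoters of the same length, 26.5% held at least 1 match and 6.40% held 2 or more, with overlapping matches counted separately. A match is a description of the letters and not evidence of binding.

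The rule was followed one condition at a time. At least 5 Cpa3 UMIs were found in 412, 207, 603 and 1196 kept cells, which is 5.76%, 2.40%, 5.39% and 16.7% of each library. Adding the Fcer1a condition left 69, 50, 124 and 494 cells. The limit on basophil and mast cell genes left 24, 18, 77 and 450, and the erythroid limit removed 1 further cell in Mll3/4SI and none elsewhere. The selected cells made up 0.336% [0.215 to 0.499] of control, 0.209% [0.124 to 0.330] of Mll3SI, 0.688% [0.544 to 0.860] of Mll4SI and 6.27% [5.72 to 6.85] of Mll3/4SI. The Mll3/4SI share was 18.7 times the control share. The rule was chosen with earlier results of these data known, so the shares describe these libraries and test no group difference. All shares are of cells sorted for CD45.2 and Kit, not of whole marrow.

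The libraries differed in which condition removed cells. Of the cells with both Cpa3 and Fcer1a, 34.8% [23.7 to 47.2] of control, 36.0% of Mll3SI, 62.1% of Mll4SI and 91.1% [88.2 to 93.5] of Mll3/4SI showed fewer than 3 basophil and mast cell genes. None of the 5 genes was detected in 1 of 69, 0 of 50, 12 of 124 and 166 of 494 cells. With each cell thinned to 5000 UMIs, fewer than 3 were detected in 62.3%, 42%, 74.2% and 95.5%, and none in 4.35%, 8%, 17.7% and 45.3%. Both shares were highest in Mll3/4SI at either depth, with Mll4SI next. Thinning took the control share with fewer than 3 from a minority to a majority, so which side of that limit most control cells fell on depended on depth. Most Mll3/4SI cells with Cpa3 and Fcer1a still showed at least 1 of the 5 genes.

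Few cells sat at the Cpa3 limit and many at the Fcer1a limit. Among Mll3/4SI cells meeting every other condition, 23 had 3 Cpa3 UMIs, 11 had 4, 12 had 5 and 10 had 6. By Fcer1a, 613 such cells had no UMI and 76 had 1, just outside the rule, while 41 had 2 and 38 had 3, just inside it. By basophil and mast cell genes, 166 showed none, 217 showed 1 and 66 showed 2, and just outside the rule 27 showed 3 and 16 showed 4.

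Within Mll3/4SI the selected cells were spread unevenly over the hashtags. They made up 3.44% [2.82 to 4.16] of the 2995 cells carrying Hashtag1 alone (103 cells) and 8.58% [7.71 to 9.52] of the 3788 cells carrying Hashtag2 alone (325 cells). The corresponding shares were 0.489% and 0.209% in control, 0.137% and 0.213% in Mll3SI, and 0.772% and 0.588% in Mll4SI. In Mll3/4SI the stem gate, defined as cells with at least 1 UMI of each of the stem cell transcription factor genes Mecom and Hlf that meet neither the rule nor a basophil or erythroid gate, went the other way, with 4.17% [3.49 to 4.95] of Hashtag1 and 2.64% [2.15 to 3.20] of Hashtag2 cells. Both hashtags of Mll3/4SI held a larger share than either hashtag of any other library. In the comparisons with the other kept cells and the gates, genes named for the size of their ratio had the same direction in the cells of either hashtag.

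**Figure D1:**
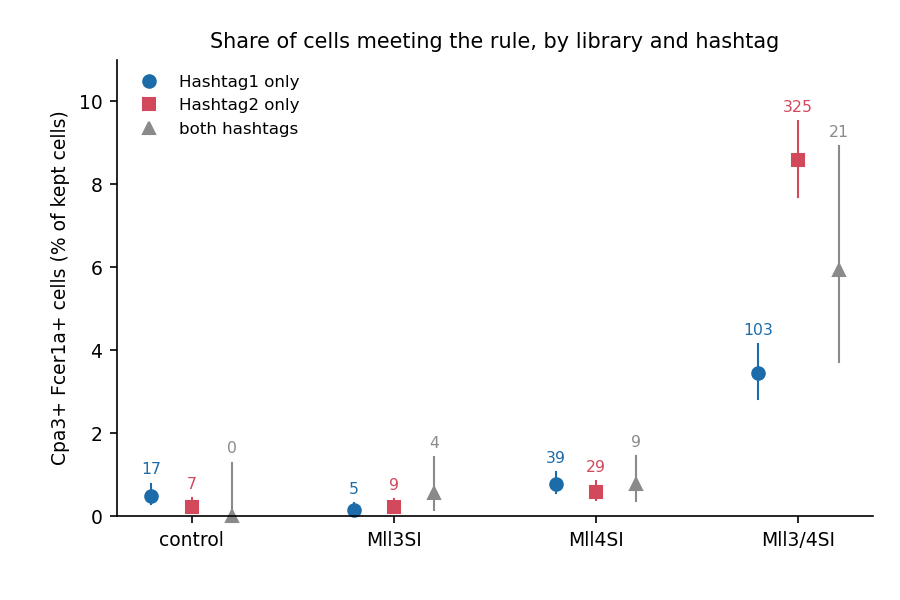
Cells meeting the Cpa3 and Fcer1a rule as a percentage of kept cells (vertical axis), by library (horizontal axis) and by hashtag carried (colour and shape), with exact 95% binomial intervals as bars and the number of selected cells above each. The Hashtag1 and Hashtag2 cells of Mll3/4SI lie at 3.44% and 8.58%, above all single-hashtag values of the other libraries, which lie below 1%.

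The selected Mll3/4SI cells were counted more deeply than most kept cells. Their median was 24916 gene UMIs and 5414 genes per cell, with 2.62% mitochondrial UMIs. Cpa3 had a median of 38 UMIs per cell (lowest 5, highest 247) and Fcer1a a median of 13 (2 to 150). In the order control, Mll3SI and Mll4SI, the selected cells had medians of 12.5, 10.5 and 16 Cpa3 UMIs and 4, 3 and 5 Fcer1a UMIs, at median depths of 13968, 18406 and 18353 UMIs. As counts summed over cells per 1000000 gene UMIs (CPM), Cpa3 (ENSMUSG00000001865, chromosome 3, 20215620 to 20242181, minus strand, GENCODE M21 on GRCm38) stood at 1195, 538, 1079 and 1749.9 CPM in the selected cells of the 4 libraries. Fcer1a (ENSMUSG00000005339, chromosome 1, 173221284 to 173227214, minus strand) stood at 294, 148, 332 and 693 CPM. Mll3/4SI was thus the highest of the 4 in both genes.

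The 5 genes named as marks of this state were set against the data. Among Mll3/4SI cells, Angpt1, the ligand of the Tek receptor, stood at 1877 CPM, against 1031 in basophil/mast-gate cells, 1919 in stem-gate cells and 347 in the other kept cells. Ikzf2, the Ikaros-family transcription factor Helios, stood at 602 CPM, against 764 in basophil/mast-gate cells, 246 in stem-gate cells and 105 in the other kept cells. Both were therefore well above the bulk of Kit+ cells, but Angpt1 was as high in stem-gate cells and Ikzf2 higher in basophil/mast-gate cells, which are the kept cells with 3 or more of the 5 basophil and mast cell genes (63 in Mll3/4SI). Pf4, a chemokine of platelets and megakaryocytes, met the description only in part. Its summed level was above that of basophil/mast-gate cells but below that of stem-gate cells and of the other kept cells. It stood at 58.7 CPM, against 4.65 in basophil/mast-gate cells, 363 in stem-gate cells and 79.1 in the other kept cells, and only 121 of 449 cells (26.9%) had a UMI. Pf4 was listed at 0 in the selected cells of control and Mll3SI and at 18.4 CPM in those of Mll4SI.

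The absence of basophil transcripts was partial. Prss34 was counted in 1 of the 449 cells, Cyp11a1, a steroid-making enzyme, in 5, Cd200r3, an activating surface receptor, in 16 and Mcpt8 in 61 (13.6%). Ms4a2, the receptor's beta chain, was counted in 266 (59.2%), at 396 CPM against 1140.4 CPM in basophil/mast-gate cells. With cells thinned to 5000 UMIs, Ms4a2 was detected in 47.9% of the selected cells, 92.1% of basophil/mast-gate cells, 5% of erythroid-gate cells (at least 4 of the 6 erythroid genes, 40 cells), a cell type that should lack it, and 4.73% of the other kept cells. Before thinning, median depths were 24916 UMIs in the selected cells and 41776 in the erythroid gate. Transcripts of connective tissue mast cells were not detected: Cma1, Mcpt4, Tpsb2 and Tpsab1, all granule proteases, and Tph1, which starts serotonin synthesis, had 0 UMIs in the 449 cells, which allows up to 0.252 CPM each. Prss34, Mcpt8 and Ms4a2 belong to the rule, so their levels follow in part from the selection. Proteases of neutrophil granules were present, with Elane at 369.7 CPM over all 449 cells.

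**Figure D2:**
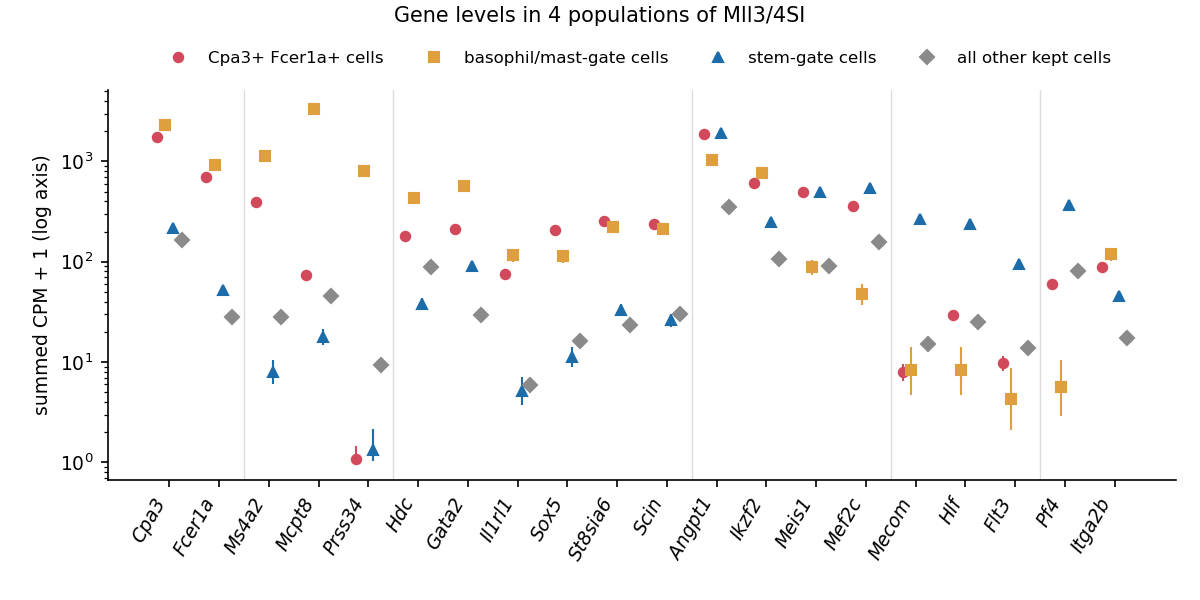
Summed CPM + 1 (vertical log axis) of 20 genes in 4 populations of Mll3/4SI, with exact 95% Poisson intervals as bars. The Cpa3+ Fcer1a+ cells lie near the basophil/mast-gate cells for Sox5, St8sia6 and Scin, near the stem-gate cells for Angpt1, Meis1 and Mef2c, and far below the basophil/mast-gate cells for Mcpt8 and Prss34 and below the stem-gate cells for Mecom.

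The selected cells were first compared with the other 6717 kept cells of Mll3/4SI. A gene counted as apart when the log2 ratio of CPM + 10 was at least 1 or at most -1 and it reached 10 CPM on either side. The 10 CPM added makes ratios of weakly expressed genes smaller than they would otherwise be. By this measure 296 of 8973 genes were higher (percent called 3.3) and 411 were lower (percent called 4.58), with a median log2 ratio over all genes of 0.19. A scaling by the median of gene ratios, which shifts that centre by 0.25, gave 188 higher and 557 lower.

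Basophil and mast cell genes outside the rule were among the higher ones: 7 of 13 tested were higher and 1 lower, with a median log2 ratio of 1.02. Gata2, a transcription factor of stem and mast cells, stood at 213 against 28.5 CPM (log2 2.53 [2.47 to 2.59]). Il1rl1 stood at 74.7 against 4.96 CPM (log2 2.50 [2.41 to 2.59]), and Slc18a2, which loads amines into vesicles, at 98.6 against 15.8 CPM. The cytokine gene Il6 stood at 55.3 against 2.71 CPM. Hdc, which makes histamine, stood at 178 against 87.01 CPM (log2 0.96 [0.89 to 1.02]), just short of the limit. Fcer1g, the gamma chain shared with other receptors, was the other way round at 322 against 650.3 CPM (log2 -0.99 [-1.04 to -0.95]).

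Stem cell genes and genes shared with megakaryocytes were higher as well. Of the stem and multipotent list 7 of 16 were higher and 0 lower (median 0.90), among them Meis1, a homeobox transcription factor, at 490.0 against 89.2 CPM (log2 2.33 [2.29 to 2.38]) and Myct1 at 104 against 17.2. The list's defining genes Mecom and Hlf were not: they stood at 6.89 and 28.3 CPM against 14.05 and 23.99. Of the megakaryocyte and platelet list 8 of 14 were higher and 1 lower (median 1.06), among them Plek (pleckstrin) at 206 against 56.04 CPM, Itga2b, the gene of CD41, at 87.2 against 16.3, and Itgb3, its integrin partner, at 43.7 against 14.5. The late platelet genes of the same list were near the floor, with Ppbp at 0.504, Gp9 at 0.588 and Vwf at 0.168 CPM, and Gp6 and Tubb1 without a UMI. Of 25 blood transcription factor genes 6 were higher and 3 lower, the higher ones being Gata2, Ikzf2, Tal1, Meis1, Zfpm1 and Hhex and the lower ones Cebpb, Cebpe and Gfi1. Of 16 cytokine receptor genes 3 were higher (Kit, Csf2rb2 and Il1rl1) and 2 lower (Il6ra and Ifngr1). The lists share genes, so their counts are not independent: Gata2 is in the basophil and mast cell, stem and transcription factor lists. Angpt1 and Pf4, named as marks of this state, belong to the stem and the megakaryocyte list.

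The genes furthest above the other cells, after the rule's own genes were set aside, came from several families. Sox5, an SRY-box transcription factor, stood at 208 against 15.2 CPM (log2 3.11 [3.05 to 3.18]) and was counted in 287 of 449 cells. St8sia6, a sialyltransferase, stood at 253 against 22.5 (log2 3.01 [2.95 to 3.07], 396 cells), and Scin, the actin-severing protein scinderin, at 239 against 29.1 (log2 2.67 [2.61 to 2.74], 377 cells). Auts2, Rgs1, Gnb4 and Gna14 followed with log2 ratios of 2.68, 2.57, 2.43 and 2.38; the last 3 encode a regulator and 2 subunits of G proteins. Prg2, the major basic protein of eosinophil granules, had the highest ratio (3.80 [3.75 to 3.86]) but was counted in only 17 cells, so its 390.0 CPM describes 3.79% of the selected cells. The related Prg3 was counted in 12.

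Granulocyte and monocyte genes were lower: 13 of 20 were lower and 0 higher (median -1.69). S100a8, a calcium-binding protein of neutrophils, stood at 4512 against 50967 CPM (log2 -3.49 [-3.51 to -3.48]), and Camp, the cathelicidin of secondary granules, at 2670.5 against 31177 (log2 -3.54 [-3.56 to -3.52]). Elane, neutrophil elastase, stood at 369.7 against 2907, and Cstdc5, of the stefin A family, at 3.53 against 256. Most of the remaining signal lay in 28 cells. Without them, a subset described with the other sub-groups that Scrublet placed among its top scores in every case, S100a8 stood at 399 CPM and Camp at 175 CPM, against 334 and 143 CPM in erythroid-gate cells. Mpo, myeloperoxidase, was different, at 1645 against 2233 CPM and counted in 392 cells. Interferon-response genes were higher in 3 of 14 (Usp18, Ifi47 and Rtp4) and lower in none, and cell cycle genes were higher in none of 15 and lower in 1, Rrm2 (64.9 against 169 CPM).

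Markers of further cell types were counted in the same way. Against the other kept cells the counts were 2 higher and 1 lower of 3 eosinophil genes, 1 higher and 0 lower of 6 erythroid genes, 0 higher and 0 lower of 4 B-lymphoid genes, 1 higher and 1 lower of 3 T, NK and innate lymphoid genes, 0 higher and 0 lower of 4 dendritic genes and 0 higher and 1 lower of 4 cell cycle inhibitor genes. Summed over the list, eosinophil genes stood at 459 CPM in the selected cells and 51.6 in the others, the former mostly Prg2. B-lymphoid genes stood at 74.1 CPM in the selected cells and 86.4 in the others, T, NK and innate lymphoid genes at 189.9 and 175, dendritic genes at 55.5 and 65.7, and erythroid genes outside the rule at 131 and 118. The highest B-lymphoid gene was Ebf1, at 31.7 CPM, which came from 3 cells. The eosinophil genes were Prg2 and Prg3 (higher, in few cells) and Ear2 (lower), the erythroid gene was Cnrip1, the lymphoid ones were Zbtb16 (higher) and Nkg7 (lower), and the cell cycle inhibitor was Cdkn2d. Most of the T, NK and innate lymphoid sum was Zbtb16, at 127 CPM.

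The nearest population by the rule's genes was the basophil/mast gate, and the second comparison asked how the selected cells differed from it within Mll3/4SI. Of 8916 genes 136 were higher in the selected cells (percent called 1.53) and 145 lower (percent called 1.63). The gate's 63 cells held far fewer UMIs than the 449 selected cells, so they set the width of the intervals. Of the basophil and mast cell genes outside the rule 8 of 15 were lower and 0 higher (median -1.06). Gata2 stood at 213 against 571 CPM (log2 -1.38 [-1.49 to -1.27]), Hdc at 178 against 426 (log2 -1.21 [-1.34 to -1.09]) and Csrp3, a LIM-domain protein, at 80.5 against 390.3 (log2 -2.14 [-2.29 to -2.0]). Il1rl1, Il6 and Slc18a2 differed by less than the limit, with log2 ratios of -0.56, -0.19 and -0.54.

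Higher in the selected cells were genes shared with stem cells. Of the stem and multipotent list 7 of 14 were higher and 2 lower (median 1.01), and of the megakaryocyte and platelet list 6 of 14 higher and 1 lower (median 0.67). Mef2c, a MADS-box transcription factor, stood at 359.9 against 46.5 CPM (log2 2.71 [2.42 to 3.0]), and Meis1 at 490.0 against 87.1 (log2 2.36 [2.14 to 2.60]). Med12l, a Mediator subunit paralog, had the highest ratio, 159 against 6.65 CPM (log2 3.34 [2.92 to 3.69]). Nrgn, a calmodulin-binding protein, stood at 102 against 5.32, and Adgrl4, an adhesion G protein-coupled receptor, at 442 against 73.8. Trpc6, a cation channel gene, stood at 56.2 CPM and had no UMI in the gate, which allows up to 1.99 CPM there. The same genes stood at 543, 499, 204, 140.5, 746 and 152 CPM in stem-gate cells, at or above the selected cells in each case.

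Lower in the selected cells, beside the gate's own genes, were Csf1, the macrophage growth factor, at 10.4 against 149 CPM (log2 -2.96 [-3.18 to -2.73]), Apoe at 33.1 against 245 (log2 -2.56 [-2.74 to -2.38]) and the transcription factor genes Ets1 (log2 -2.34 [-2.55 to -2.14]) and Cebpb (log2 -1.92 [-2.14 to -1.70]). Granulocyte and monocyte genes were lower in 4 of 18. Without the 28 cells of high S100a8 this became 12, and the median moved from -0.52 to -1.58. Prg2, at 512 CPM in the gate, was detected after thinning in 3.17% of its cells and 2.01% of the selected cells.

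Against the 242 stem-gate cells of Mll3/4SI fewer genes were apart: 68 of 9060 were higher in the selected cells (percent called 0.751) and 107 lower (percent called 1.18). Of the basophil and mast cell genes outside the rule 7 of 13 were higher and 0 lower (median 1.14). Il1rl1 stood at 74.7 against 4.13 CPM (log2 2.58 [2.38 to 2.76]), Il6 at 55.3 against 0.795 (log2 2.60 [2.43 to 2.72]) and Hdc at 178 against 37.03 (log2 2.0 [1.84 to 2.16]). Sox5, Scin and St8sia6 were again among the highest, at log2 3.43 [3.24 to 3.62] for Sox5, 2.83 [2.66 to 3.0] for Scin and 2.64 [2.48 to 2.80] for St8sia6. Cdh1, E-cadherin, stood at 78.2 against 1.75 CPM (log2 2.91 [2.73 to 3.05]), and Sgip1, an endocytic adaptor, at 118 against 9.69 (log2 2.70 [2.50 to 2.89]).

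Stem cell genes divided into those held and those missing. Of the stem and multipotent list 8 of 22 were lower and 1 higher (median -0.59); the higher one, Gata2, stood at 213 against 90.1 CPM. Mecom and Hlf define the gate, so their ratios of -4.04 and -2.68 follow from its construction. Of genes that the gate did not use, Flt3, a receptor of lymphoid-primed progenitors, stood at 8.73 against 94.4 CPM (log2 -2.48 [-2.64 to -2.31]), Hoxa9 at 4.62 against 51.6 (log2 -2.08 [-2.25 to -1.89]) and the survival gene Bcl2 at 39.2 against 204 (log2 -2.12 [-2.25 to -1.99]). Angpt1 and Meis1 were level, with log2 ratios of -0.03 [-0.06 to 0.0] and -0.03 [-0.09 to 0.03], and Kit stood at 221 against 252 CPM. Of the megakaryocyte and platelet list 0 were higher and 4 of 17 lower, among them Pf4 (log2 -2.44 [-2.55 to -2.33]).

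**Figure D3:**
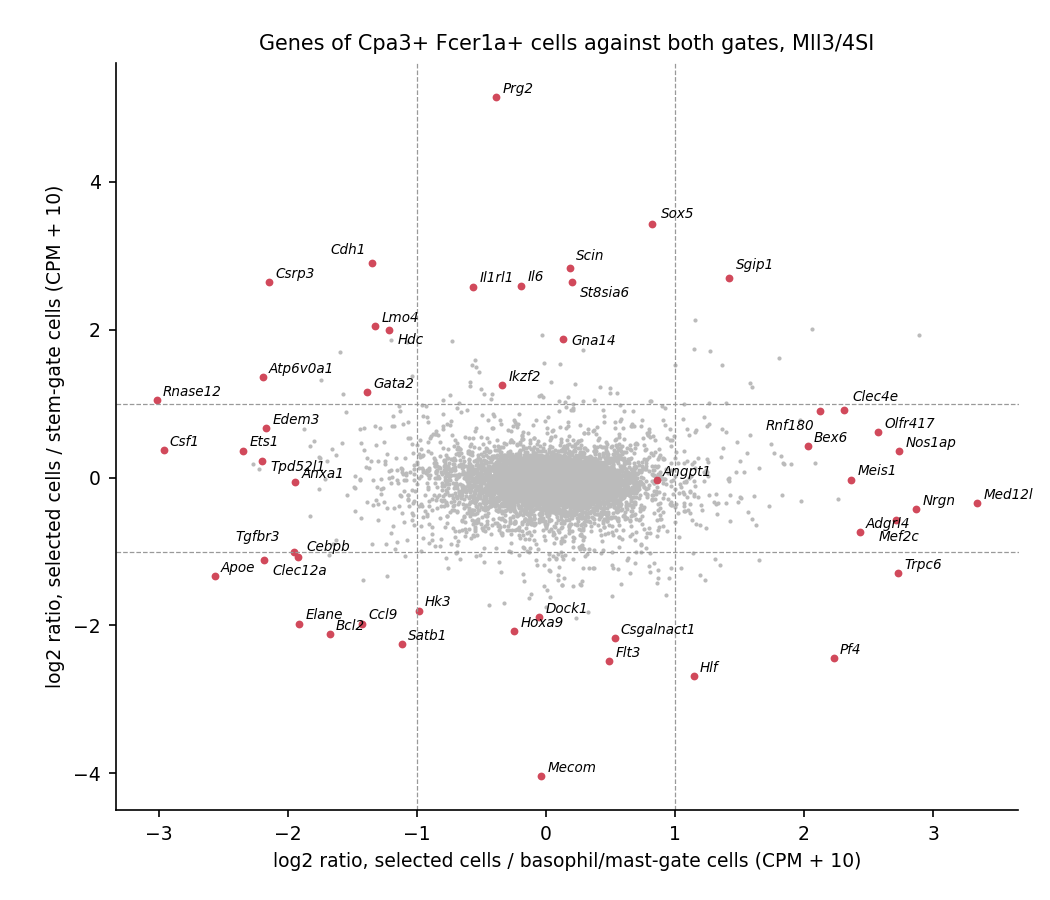
Log2 ratios of CPM + 10 of the Cpa3+ Fcer1a+ cells of Mll3/4SI to basophil/mast-gate cells (horizontal axis) and to stem-gate cells (vertical axis), 1 grey point for each gene tested, with dashed lines at 1 and -1. Red points are the named genes. Sgip1 (1.42, 2.70) lies beyond the line at 1 for both gates, and Sox5 (0.82, 3.43) only for the stem gate. Pf4 and Trpc6 lie above the basophil/mast gate and below the stem gate, and Csrp3 lies below the former and above the latter.

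Some genes were higher than in both gates. The 2 comparisons share the selected cells, so the counts are given side by side without a reading: 13 genes were higher in both, which is 9.56% of the 136 higher than the basophil/mast gate and 19.1% of the 68 higher than the stem gate.

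The surface antibodies were not used by the rule and give a second readout of the same cells. The CD41 antibody, which binds the integrin made from Itga2b, had a median of 345 UMIs per selected cell of Mll3/4SI (quartiles 168 and 584), against 52 in basophil/mast-gate cells, 47 in stem-gate cells and 8 in the other kept cells. As a share of the UMIs of the 13 surface antibodies it was 14.2%, 3.21%, 4.97% and 2.72%, so that its log2 ratio was 2.14, 1.51 and 2.39 against these 3 populations. The RNA did not follow the same order, since Itga2b stood at 87.2 CPM in the selected cells and 118 CPM in basophil/mast-gate cells (log2 -0.40 [-0.61 to -0.19]). Within each single hashtag the CD41 ratio to the other cells was 3.06 and 2.02.

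The selected cells of the other libraries were also above the other kept cells of their own library in CD41. Their median CD41 counts were 13.5, 25 and 80 UMIs in control, Mll3SI and Mll4SI, and the log2 ratios of the antibody share to the other kept cells of the same library were 1.64, 1.15 and 2.52, against 2.39 in Mll3/4SI. The level in Mll3/4SI was therefore the highest of the 4, while the ratio to the other kept cells was not above that of Mll4SI. Against the gates of their own library the order was different. The log2 ratios to basophil/mast-gate cells were -0.49, 0.79, 0.57 and 2.14, and those to stem-gate cells were -0.29, -0.97, 0.24 and 1.51. By share, only in Mll3/4SI was CD41 higher by at least 1 log2 unit than in both gates. Per cell, the selected cells of Mll3SI and Mll4SI were above both gates too. Medians of the per-cell centred log ratio differed from basophil/mast-gate cells by -0.29, 1.01, 0.53 and 2.39. From stem-gate cells they differed by 0.21, 0.99, 1.63 and 2.83. Other kept cells had CD41 shares of 0.512%, 0.458%, 0.533% and 2.72%.

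Of the 13 antibodies 4 had a share at least 1 log2 unit higher than in the other kept cells and 4 had one as much lower. CD117, the Kit protein, had a median of 357 UMIs against 99 (log2 1.16), CD34 one of 49 against 12 (log2 1.40) and CD150, a stem and megakaryocyte marker, one of 9 against 3 (log2 1.53). CD48 followed at 1551 against 436 (log2 0.99). CD16/32, the Fc gamma receptors of myeloid cells, was lower, at a median of 37 UMIs against 739 in the other kept cells, 336 in basophil/mast-gate cells and 76 in stem-gate cells. CD11b and Gr1, of mature myeloid cells, had medians of 11 and 23 against 322 and 54. CD201 was the remaining lower one by share (log2 -2.16), but its per-cell medians were 5 and 4 UMIs and its centred log ratio differed by only -0.10.

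Against stem-gate cells CD41 was higher by every measure, with a centred log ratio 2.83 higher. Sca1 was lower, with a median of 16 against 35 UMIs (log2 of shares -2.25, centred log ratio -0.73), as was CD135, the Flt3 protein (medians of 1 and 2 UMIs, log2 of shares -1.65, centred log ratio -0.50). CD16/32 was lower by a centred log ratio of -0.94 and a log2 share ratio of -0.77. CD117 and CD34 were near the stem-gate values, with log2 ratios of -0.18 and -0.21. CD150 differed by measure, with a log2 share ratio of -1.37 but a centred log ratio 0.28 higher. Against basophil/mast-gate cells CD150 had the highest log2 share ratio (2.48). It came from medians of 9 and 4 UMIs, with a centred log ratio 0.80 higher. CD34 (log2 1.42) and CD117 (357 against 165 UMIs, log2 1.09) were higher too, and CD16/32 was lower (log2 -1.48). The Kit protein, like Kit RNA, thus lay near the level of stem-gate cells.

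**Figure D4:**
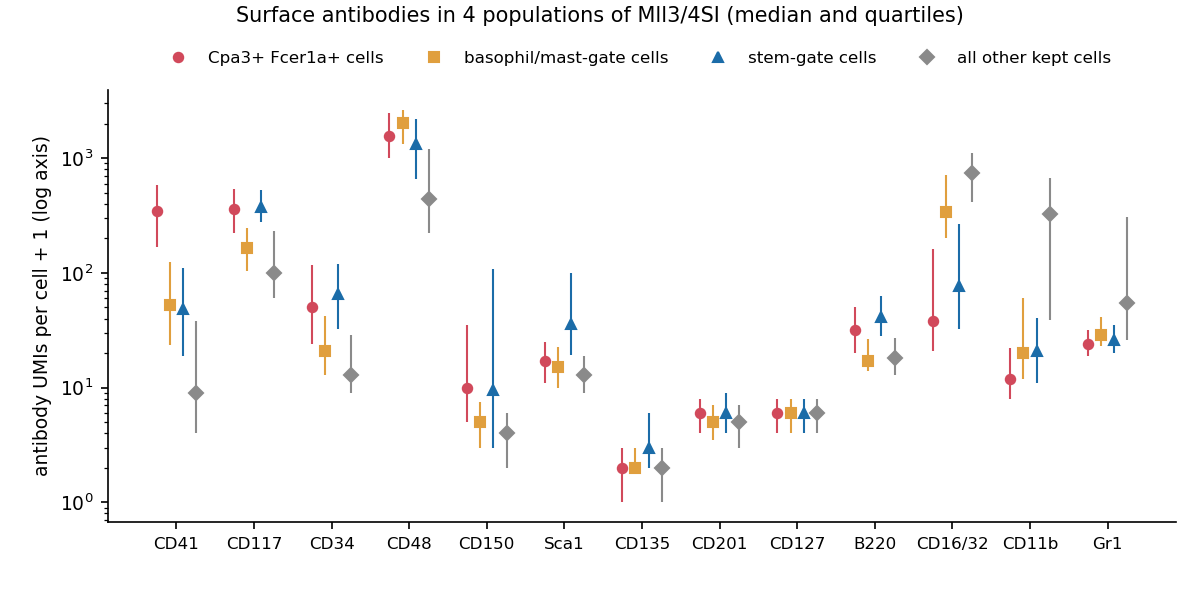
Antibody UMIs per cell + 1 (vertical log axis) for the 13 surface antibodies in 4 populations of Mll3/4SI, as medians with quartiles. The Cpa3+ Fcer1a+ cells have the highest CD41 of the 4 (median 345 UMIs) and the lowest CD11b (median 11 UMIs).

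Detection at equal depth gave the share of cells behind the summed levels. With every cell thinned to 5000 UMIs, Angpt1 was found in 95.5% of selected Mll3/4SI cells, 90.5% of basophil/mast-gate, 92.1% of stem-gate, 47.5% of erythroid-gate and 24.5% of other kept cells (unthinned, 99.8% of the selected cells). Ikzf2 was found in 84.1%, 88.9%, 58.3%, 50% and 18.6% in the same order (unthinned, 98.9%), and Meis1 in 78.3%, 33.3%, 75.6%, 22.5% and 16.3% (unthinned, 95.99%). These 3 genes were found in most of the selected cells, so their summed levels do not rest on a few cells. Sox5 was found in 41.8%, 23.8%, 4.13%, 27.5% and 3.55% (unthinned, 63.9%). In Angpt1, Ikzf2 and Sox5 the 40 erythroid-gate cells were above the other kept cells too. Pf4 was found in 11.9%, 3.17%, 14.9%, 2.50% and 3.29% (unthinned, 26.9%). Its share among the selected cells was thus above that of other kept cells although its summed level was not, and it lay in a minority of cells.

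Cells on either side of the Fcer1a limit were compared. Mll3/4SI cells that met every other condition were divided by Fcer1a UMIs into 613 with none, 76 with 1, 109 with 2 to 4, 112 with 5 to 12 and 228 with 13 or more, at median depths of 25794, 24411, 22585, 22253 and 27442.5 UMIs. In this order Gata2 stood at 59.3, 106, 163, 176 and 249 CPM, and Il1rl1 at 6.37, 18.4, 33.5, 63.1 and 96.7 CPM. Sox5 stood at 18.3, 89.1, 127, 159.8 and 262 CPM. Each was higher in every step than in the one before. Angpt1 stood at 875, 1485, 1811, 2000.2 and 1849.6 CPM and the CD41 antibody at medians of 127, 250.5, 293, 372 and 352 UMIs, both levelling off. The early granule genes went the other way, with Mpo at 4367, 2544, 1947, 1706 and 1496 CPM and Elane at 2514, 925, 574, 672 and 154 CPM. The 76 cells with 1 UMI, just outside the rule, lay between the cells without Fcer1a and the selected cells in Gata2, Il1rl1, Sox5, Angpt1 and Mpo. These CPM are sums over the cells of each step. Whether single cells lay in between, or a step mixed different kinds of cell, was not tested. Pf4 and Hdc did not follow this order. Pf4 stood at 6.37, 101, 25.5, 90.3 and 58.3 CPM, highest in the 76 cells, and Hdc at 152, 118, 139, 129 and 216 CPM, lowest in them.

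The 449 cells were clustered on 1000 variable genes without the rule's genes, which gave 6 sub-groups of 149, 111, 76, 75, 28 and 10 cells. The genes that divide sub-groups are those of the clustering itself, so the values describe them and test nothing. Sub-group 1 (33.2% of the cells) had low cell cycle genes, with Mki67 at 30.8 CPM against 518 in sub-group 3, and the highest Angpt1 (2842 CPM), Meis1 (724 CPM) and Pf4 (107 CPM). Sox5 stood there at 396 CPM against 151 in the others, and F2r, a thrombin receptor, at 145 against 47.02. Sub-group 3 was led by mitotic genes, such as Ube2c at 827 against 142 CPM and the cyclin gene Ccnb1 at 219 against 33.1. Sub-group 4 was led by S-phase genes, such as Pclaf at 623 against 188 CPM and the histone gene Hist1h1b at 2567 against 858. Ebf1, a B-lymphoid transcription factor, had the highest ratio of sub-group 4 (173 against 0.103 CPM) but had a UMI in only 3 of the 449 cells. Angpt1 lay between 1955 and 2842 CPM across sub-groups 1, 3 and 4.

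Sub-group 2 stood apart by granule genes of early myeloid cells. Its Mpo stood at 4463 against 605 CPM in the other selected cells, Ctsg, cathepsin G, at 4031 against 650.4, and Elane at 1095 against 102. It also held Ms4a2 in 92 of 111 cells (82.9%), against 38.7% in sub-group 4, and 206 CPM of Mcpt8 against 2.17 in sub-group 1. Angpt1 (943 CPM), Meis1 (181 CPM) and Pf4 (4.05 CPM) were lower there than in sub-groups 1, 3 and 4. Scrublet placed 10 of its 111 cells among its top scores. Its Prg2 stood at 1383 against 23.3 CPM. The granule genes and the genes shared with stem cells were therefore highest in different sub-groups.

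The 2 smallest sub-groups need separate mention. Sub-group 5 (28 cells) had neutrophil transcripts, with S100a8 at 43462 CPM against 399 in the others, and a median of 41353.5 UMIs against 16909 in sub-group 1. All 28 were among the top Scrublet scores and 10 carried both hashtags. Sub-group 6 (10 cells) came from Hashtag1 alone and was led by Apoe (582 against 20.5 CPM), Lgals1, which encodes galectin 1 (799 against 69.5), and Ifitm1 (1997 against 246). Its Hoxa9 stood at 56.3 against 3.44 CPM and its Gata2 at 420.4. The part of doublets in sub-group 5 was not tested beyond these values.

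**Figure D5:**
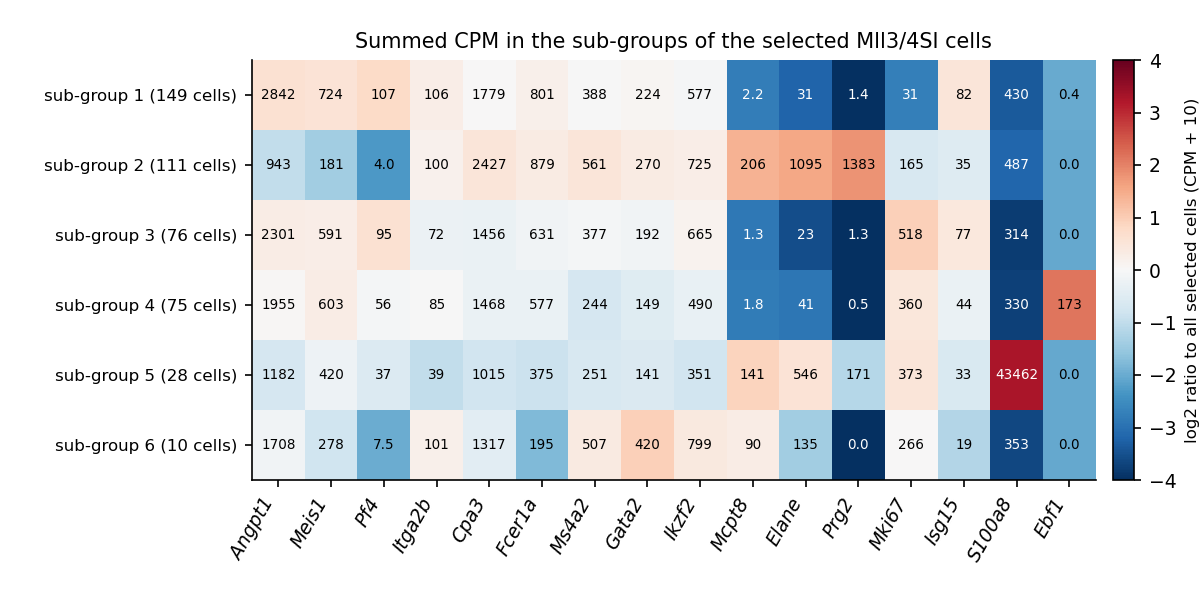
Summed CPM (numbers) of 16 genes in the 6 sub-groups of the selected Mll3/4SI cells; colour gives the log2 ratio of CPM + 10 to all 449 cells, ending at 4 and -4. Angpt1 and Meis1 are lowest in sub-group 2, which has the highest Elane and Prg2, and S100a8 is high only in sub-group 5 (43462 CPM).

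The selected cells of Mll3/4SI were last set beside those of the other libraries, where 77 (Mll4SI) and 24 (control) cells limit the precision and 1 library stands for each group. Scrublet placed 2 of the 24 control cells, 4 of the 18 Mll3SI cells and 7 of the 77 Mll4SI cells among its top scores, and 0, 4 and 9 carried both hashtags. The number of top scores was fixed by library size. Among the other kept cells of these libraries they made up 5.71%, 6.86% and 8.95%. The 2 comparisons share the Mll3/4SI cells. Against Mll4SI, which also carried Xist, 86 of 8979 genes were higher (percent called 0.958) and 132 lower (percent called 1.47). Interferon-response genes were higher in 11 of 14 and lower in none (median 1.41), such as Isg15 at 55.3 against 3.06 CPM (log2 2.32 [1.92 to 2.59]) and Rtp4 at 58.8 against 6.12 CPM (log2 2.09 [1.68 to 2.42]). The same list had a median of 0.95 when the other kept cells of the 2 libraries were compared, so the difference was not limited to the selected cells. Granulocyte and monocyte genes were lower in 8 of 18, stem and multipotent genes lower in 2 of 17 and higher in none, and basophil and mast cell genes lower in 2 of 13 and higher in none.

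Single genes outside the rule were set side by side over the selected cells of the 4 libraries. Bcl2, which opposes cell death, stood at 193, 262, 237 and 39.2 CPM, so that the Mll3/4SI cells were lowest. Satb1, a chromatin organiser, stood at 66.8, 129.8, 56.3 and 4.45 CPM, and Car2, carbonic anhydrase 2, at 146, 90.03, 186 and 19.1 CPM. Mecom stood at 49.5, 132, 56.3 and 6.89 CPM. In each of these 4 genes Mll3/4SI was the lowest of the 4 libraries. Sgip1 stood at 4.95, 2.65, 17.1 and 118 CPM and Plek at 32.2, 31.8, 78.3 and 206 CPM, with Mll3/4SI highest in both. Control and Mll3SI had only 24 and 18 selected cells, and Sgip1 was near the floor in both. These genes were picked after their values were seen.

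Against the 24 control cells 307 of 9140 genes were higher (percent called 3.36) and 327 lower (percent called 3.58), a comparison in which sex also differs. Basophil and mast cell genes outside the rule were lower in 10 of 16 and higher in none (median -1.23), with Gata2 at 213 against 576 CPM (log2 -1.40 [-1.59 to -1.20]) and Csrp3 at 80.5 against 438 (log2 -2.31 [-2.53 to -2.08]). Megakaryocyte and platelet genes were higher in 6 of 14 and lower in 1. Interferon-response genes were higher in 8 of 14, with a median of 1.17 beside 0.73 in the other kept cells. Cell cycle genes were higher in 4 of 15. The control cells with Cpa3 and Fcer1a that met the rule thus carried more of the basophil and mast cell list than the Mll3/4SI cells that met it. Their median depths differed, at 13968 and 24916 gene UMIs, and shallow cells pass the rule's limit on basophil and mast cell genes more easily. Of the control cells 58.3% showed 2 of the rule's basophil and mast cell genes, against 14.7% in Mll3/4SI. The part of depth and of the rule in this difference was not tested.

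The genes named in the groups were themselves transcribed in the selected cells. Kmt2c (MLL3) stood at 158, 162, 149 and 131 CPM and Kmt2d (MLL4) at 37.1, 26.5, 27.5 and 24.4 CPM in control, Mll3SI, Mll4SI and Mll3/4SI. The 2 Mll3/4SI log2 ratios to control were -0.26 [-0.60 to 0.10] and -0.45 [-1.06 to 0.17], intervals that include 0, and the labels do not say whether the transcripts should differ.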

How the data were processed

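Single-cell RNA and antibody-derived UMIs were counted in 4 libraries prepared with the 10x Genomics 3' chemistry named in the labels' protocols. Per the submitters' processing notes, the authors used Cell Ranger 7.1.0 and the mm10 genome. The deposited values are raw UMI counts for 32285 genes and 15 antibodies (13 surface antibodies and 2 hashtags) in each cell barcode. The aligner's settings and the annotation are not given in the sources used here, and whether doublets were removed before deposit is not stated.

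Barcodes under 500 detected genes, under 1000 gene UMIs or above 10% mitochondrial UMIs were left out. No cells were removed as doublets. Scrublet scores and the UMI thresholds of 118 (Hashtag1) and 298 (Hashtag2) were used to mark possible doublets. Top scores were a fixed share of each library's kept cells, 0.8% for every 1000 kept cells, and not a call by Scrublet. UMIs were summed over the cells of a population, scaled to 1000000 gene UMIs (CPM) and compared as log2 ratios of CPM + 10, with bounds combined from exact Poisson limits. Shares have Clopper-Pearson limits. PCR copies were collapsed by the UMIs before deposit, and all limits cover counting error at 95% and no difference between animals. Genes counted as apart had a log2 ratio of at least 1 or at most -1 and at least 10 CPM on either side, with the genes of the rule left out. There was 1 library per group, so no test was run.

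Genes named individually were those of the rule, the marker lists, Kmt2c and Kmt2d, and those with extreme ratios. The last were the 12 highest and 12 lowest ratios of each comparison with the other kept cells or a gate. They had at least 50 CPM and the same direction in both hashtags. Leading genes of the sub-groups were also named, without the hashtag condition. The choice of the cells, the gene lists and the comparisons were made with earlier results of these data known. Sub-groups came from Leiden clustering at resolution 0.5 (scanpy 1.11.5, leidenalg 0.10.2). The ratio and interval code was tested on simulated data. Gene positions are from GENCODE M21 (GRCm38), which matched 32158 genes. Promoters are from RefSeq.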

Additional observations from a re-analysis of the deposited data

How the results depend on the processing

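Of the rule's minima, 10 Cpa3 UMIs left 0.116%, 0.510% and 5.62% of Mll3SI, Mll4SI and Mll3/4SI. A minimum of 1 Fcer1a UMI gave 0.503% of control and 7.33% of Mll3/4SI, and 4 UMIs gave 0.182%, 0.0464%, 0.474% and 5.16% of the 4 libraries. Requiring none of the 5 basophil and mast cell genes gave 0.0140%, 0%, 0.107% and 2.32%, and none of the 6 erythroid genes 0.168%, 0.0928%, 0.295% and 4.74%. Applying the rule to cells thinned to 5000 UMIs gave 0.187%, 0.0238%, 0.300% and 3.40%. Mll3/4SI had the highest share under each of these settings for which all 4 libraries are given.

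Adding 1 in place of 10 CPM gave 701 genes higher than in the other kept cells, 348 higher and 311 lower than in the basophil/mast gate, and 127 higher and 261 lower than in the stem gate. A minimum of 50 CPM gave 252 lower than in the other kept cells, 69 higher and 96 lower than in the basophil/mast gate, and 43 higher and 48 lower than in the stem gate. Averaging over cells gave 447 higher than in the other kept cells, and median-of-ratios scaling gave 188. With Hashtag1 cells alone 317 were higher than in the basophil/mast gate, and with cells lacking all 5 of its genes 229 were higher and 281 lower. The stem gate of control gave 150 higher and 163 lower. Leaving out sub-group 5, an alternative chosen after seeing the data, gave 327 higher and 480 lower than in the other kept cells, 146 and 214 against the basophil/mast gate, and 72 and 147 against the stem gate.

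Against the basophil/mast gate 1 antibody was lower by the same limit. Thinning to 2000 UMIs gave Angpt1 in 89.3%, Ikzf2 in 61.7%, Ms4a2 in 39.4% and Pf4 in 8.46% of the selected Mll3/4SI cells, and without thinning they were found in 99.8%, 98.9%, 59.2% and 26.9%. Of the log2 ratios of single named genes recomputed under the alternatives, 263 moved outside their counting interval and 199 did not, and no called ratio changed sign. No paired analysis was possible because each group has 1 library and the labels give no replicate numbers. Depth limits genes near 3 UMIs in the basophil/mast gate and in the selected cells of control and Mll3SI.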
